A study of Mus musculus with 8 samples.

Results

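Heat shock factors, chaperones and co-chaperones were examined in mouse embryonic stem cells (ESCs) with and without Importin 13 (IPO13). IPO13 is a nuclear transport receptor that carries proteins in both directions across the nuclear envelope. The list holds 35 genes, chosen by symbol from textbook membership but with earlier results of these data known. All 35 were found among the 23420 gene symbols of the count tables. They were also among the 19424 genes that were tested because some library counted them at least once. Together they took 2.61% of all counts. Most of their products are cytosolic, but Hspa9, Hspd1 and Hspe1 encode chaperones of the mitochondrial matrix and were kept as listed.

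The ESC lines came from blastocysts at day 5 before implantation, on a mixed 129 x C57BL/6 background, and were grown without feeder cells on gelatin in serum medium with the cytokine LIF. RNA-seq libraries covered 4 groups of 2: untreated IPO13+/+, IPO13+/+ after H2O2, untreated IPO13-/- and IPO13-/- after H2O2. The H2O2 groups of both genotypes received 125 µM for 1 h and were left in clean medium for 2 h before RNA was taken, so all changes are those of a time point shortly after a pulse of oxidant. How the allele was made, and whether each genotype is 1 clone, is not given in the sources used here, and neither is whether replicates were separate cultures. P-values therefore measure only the spread between these libraries, which may be technical. Bulk RNA cannot tell fewer cells with a transcript from less transcript per cell.

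Heat shock factor 1 (HSF1) is held inactive by chaperones in resting cells, is released when misfolded proteins occupy them, and binds inverted repeats of the unit GAA in the promoters of chaperone genes. HSP70 proteins fold clients in cycles of ATP hydrolysis that J-domain proteins start and HSP110 and BAG proteins reset, HSP90 with its co-chaperones finishes the folding of kinases and receptors, chaperonins enclose unfolded chains in a chamber, and small heat shock proteins hold denatured proteins without using ATP. Oxidation of proteins is a known way to engage this system, and ESCs are known for high basal chaperone levels.

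Each library held between 60397877 and 73789079 reads counted on genes, and a floor of 3 counts corresponded to 0.0407 to 0.0497 CPM, which covers counting error only. Ipo13, the targeted gene, had 4716 to 4928 counts in the 4 IPO13+/+ libraries and 1555 to 1965 in the 4 IPO13-/- libraries, so that transcript remained but at a log2 difference of -1.44 ± 0.05 (SE) in untreated cells (edgeR FDR = 9.5e-19). The 6 ESC markers (Pou5f1, Nanog, Sox2, Zfp42, Esrrb and Tdgf1) summed to between 3915 and 4524 CPM in every library, against 36.0 to 48.4 CPM for 16 markers of fibroblasts, primitive endoderm, trophectoderm and early mesoderm together. None of these markers was at 0 in all libraries.

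The promoter sequences are shown first, since the choice of genes did not use them. RefSeq promoter windows on GRCm38.p6, from 250 bases before to 50 bases after a transcription start, were at hand for 28 of the 35 members. Windows for Hsf1, Hspa8, Hspa9, Cryab, Hsp90aa1, Hsp90ab1 and St13 were not used here. A window was searched for GAANNTTC or TTCNNGAA, the 2 ways in which a pair of units can face each other, and for 3 units in a row, that is either of these followed by 2 bases and a further unit in alternating direction. Both patterns of 2 units read the same on the opposite strand, and a run of 3 units was searched on both strands, so that each run of 3 also counts as runs of 2. Runs of 3 units occurred in 5 of the 28 members with a window (17.9%: Hsph1, Chordc1, Hspd1, Hspe1 and Dnajb6) and in 0.662% of 27025 genes in the table. Runs of 2 units occurred in 16 of the 28 (57.1%) and in 17.0% of all genes. A match is a description of letters and not evidence of binding.

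The 250 bases before the start are printed for 4 members, with bases of the element in capitals: the stress-inducible pair Hspa1a and Hspa1b because they are near copies of each other, Hspb1 as a small heat shock gene with 2 elements, and Hspe1 as a member with more than 2 units in a row. The regions are chr17:34972157-34972406 (minus strand) for Hspa1a, chr17:34959239-34959488 (minus strand) for Hspa1b, chr5:135887669-135887918 (plus strand) for Hspb1 and chr1:55087898-55088147 (plus strand) for Hspe1, all 5′ to 3′ on the strand of the gene.
Hspa1a: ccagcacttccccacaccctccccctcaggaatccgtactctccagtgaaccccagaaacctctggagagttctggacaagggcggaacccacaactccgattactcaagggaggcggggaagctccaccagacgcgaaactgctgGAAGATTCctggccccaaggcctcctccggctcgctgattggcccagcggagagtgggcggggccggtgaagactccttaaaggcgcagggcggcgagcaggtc
Hspa1b: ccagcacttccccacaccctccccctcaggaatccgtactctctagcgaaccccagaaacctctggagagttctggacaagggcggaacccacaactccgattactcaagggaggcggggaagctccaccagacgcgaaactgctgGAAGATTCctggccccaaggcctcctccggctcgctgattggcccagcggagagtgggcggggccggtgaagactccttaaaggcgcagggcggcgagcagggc
Hspb1: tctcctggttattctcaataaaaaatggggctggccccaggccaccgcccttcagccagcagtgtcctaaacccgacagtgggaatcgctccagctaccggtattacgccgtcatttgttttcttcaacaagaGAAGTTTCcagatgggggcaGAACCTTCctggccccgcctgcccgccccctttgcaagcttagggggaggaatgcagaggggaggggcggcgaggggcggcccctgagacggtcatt
Hspe1: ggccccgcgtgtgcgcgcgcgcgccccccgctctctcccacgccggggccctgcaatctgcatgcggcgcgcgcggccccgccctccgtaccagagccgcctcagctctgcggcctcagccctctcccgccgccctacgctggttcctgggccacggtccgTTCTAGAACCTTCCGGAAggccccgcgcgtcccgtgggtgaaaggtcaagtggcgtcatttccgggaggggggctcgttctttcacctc

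The Hspa1a and Hspa1b stretches are identical at 247 of 250 positions (98.8%), and the single run of 2 units starts 104 bases before the start in both. In Hspb1 the elements start 117 and 97 bases before the start. The run in the Hspe1 window (chr1:55088059-55088076) also lies in 1 of the 2 RefSeq windows of Hspd1, its partner on the opposite strand, while the other Hspd1 window holds none. In the GENCODE M21 annotation Hspd1 extends to 55088243 and Hspe1 starts at 55088132, so the run lies inside the annotated Hspd1 gene. Their exons overlap over 112 bases, where reads of the pair cannot be told apart without strand.

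The level of the members per kilobase of exons (all annotated exons of a gene merged) spanned several orders of magnitude. In untreated IPO13+/+ cells Hsp90ab1 was highest at 2604 CPM per kb, followed by Hspa8, the constitutive HSP70, at 1316 and Hsp90aa1 at 1112. At the other end stood Dnajb4 at 0.286, Hspa4l at 0.398, Hspb6 at 0.487 and Hspa1a at 0.758 CPM per kb. This order depends on the merged length, which is 8765 bases for Dnajb4, against 2464 for its longest coding transcript. For Hspa1a, 56.5% of the 100-base windows of its transcript are shared with other genes, so its level is uncertain. Hspb1 was by far the most abundant small heat shock gene at 445 CPM per kb, against 30.1 for Hspb8 and 1.69 for Cryab. Hspa1l, an HSP70 gene known for its testis expression, had 0 and 0 counts in untreated IPO13+/+, 5 and 3 after H2O2, 4 and 5 in untreated IPO13-/- and 4 and 1 in IPO13-/- after H2O2. All groups lay near the floor, and 70.8% of its 100-base windows are shared with an antisense gene, so no fold change is given for it although it passed the FDR threshold in some comparisons below.

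**Figure D1:**
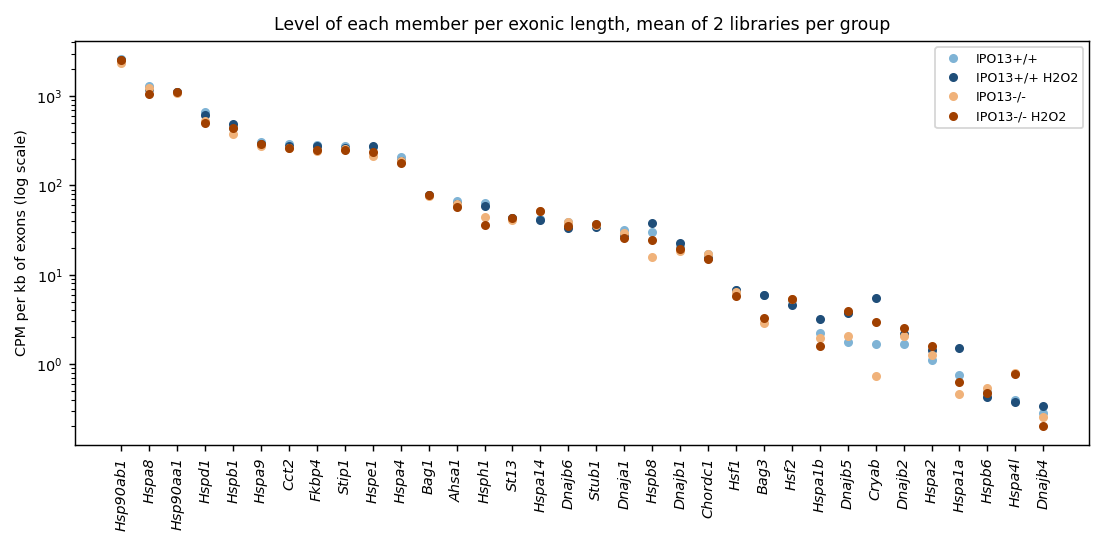
Mean level of 34 members (Hspa1l left out) in CPM per kb of merged exons on a log axis, ordered by the level in untreated IPO13+/+ cells; points are group means of 2 libraries. Hsp90ab1, Hspa8 and Hsp90aa1 are the highest in every group, and the groups spread most widely, as a ratio, at Cryab, followed by Hspa1a, Hspb8, Dnajb5 and Hspa4l.

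H2O2 raised a small set of members in IPO13+/+ cells and neither HSP90 gene was called. Cryab rose most, followed by Dnajb5, Hspa1a and Hspa1b, while Hspa8, Dnaja1 and Dnajb6 fell slightly. At an FDR below 0.05, 10 of 35 members were higher (Hspa1a, Hspa1b, Hspa1l, Hspa2, Hspb1, Hspb8, Cryab, Dnajb1, Dnajb2 and Dnajb5), against 11.5% of all tested genes. A further 7 were lower (Hsf2, Hspa8, Hspa4, Chordc1, Hspd1, Dnaja1 and Dnajb6), against 13.8%. Among genes with a mean of at least 1 CPM, where 34 of the members lie, 9 members were higher against 15.1% of such genes and 7 lower against 21.4%. The median log2 change over the members was -0.03, beside -0.001 over all tested genes. Changes of at least 2-fold were called for 4 members (Hspa1a, Hspa1l, Cryab and Dnajb5), all upwards, against 2.75% of all genes, and the count was 2 without untreated IPO13+/+ replicate 2 or without H2O2-treated IPO13+/+ replicate 1. Of the 10 higher calls 6 held in every alternative (Hspa1a, Hspa1b, Hspb8, Cryab, Dnajb2 and Dnajb5), and of the 7 lower calls 1 did (Dnajb6). The lower count was 1 in a fit of the 4 compared libraries alone and 2 without H2O2-treated IPO13+/+ replicate 1.

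In IPO13-/- cells the same treatment gave 10 higher members (Hspa1a, Hspa2, Hspb1, Hspb8, Cryab, Hsp90ab1, Hspe1, Dnajb2, Dnajb5 and Bag3; 14.9% of all genes) and 8 lower ones (Hsf1, Hspa1b, Hspa8, Hsph1, Chordc1, Dnaja1, Dnajb4 and Dnajb6; 14.4% of all genes). Among genes with a mean of at least 1 CPM the shares were 20.8% higher and 21.5% lower, beside 10 and 8 of 34 members (29.4% and 23.5%). With library totals in place of TMM factors the split was 7 higher and 11 lower. The median over the members was 0.01, beside 0.0 over all genes. Only Cryab was called at 2-fold or more (2.52% of all genes were, upwards), and without H2O2-treated IPO13-/- replicate 1 there were 2 such members. Calls that held in every alternative were Hspb1, Hspb8, Cryab and Dnajb5 upwards and Hspa8, Hsph1 and Dnaja1 downwards. The number of higher calls dropped to 4 without untreated IPO13-/- replicate 1, and the number of lower calls to 3 or 4 without that library or without either treated IPO13-/- library. The responses of both genotypes were measured in separate libraries: 7 members were called higher in both, which is 7 of the 10 in each, and 4 were called lower in both, which is 4 of 7 in IPO13+/+ and 4 of 8 in IPO13-/-. Over all tested genes, those higher in both were 73.8% of the higher calls in IPO13+/+ and 56.7% of those in IPO13-/-, and those lower in both were 61.3% and 58.6% of the lower calls, so the members' overlap was near that of all genes. Hspa1b was called higher in one and lower in the other.

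**Figure D2:**
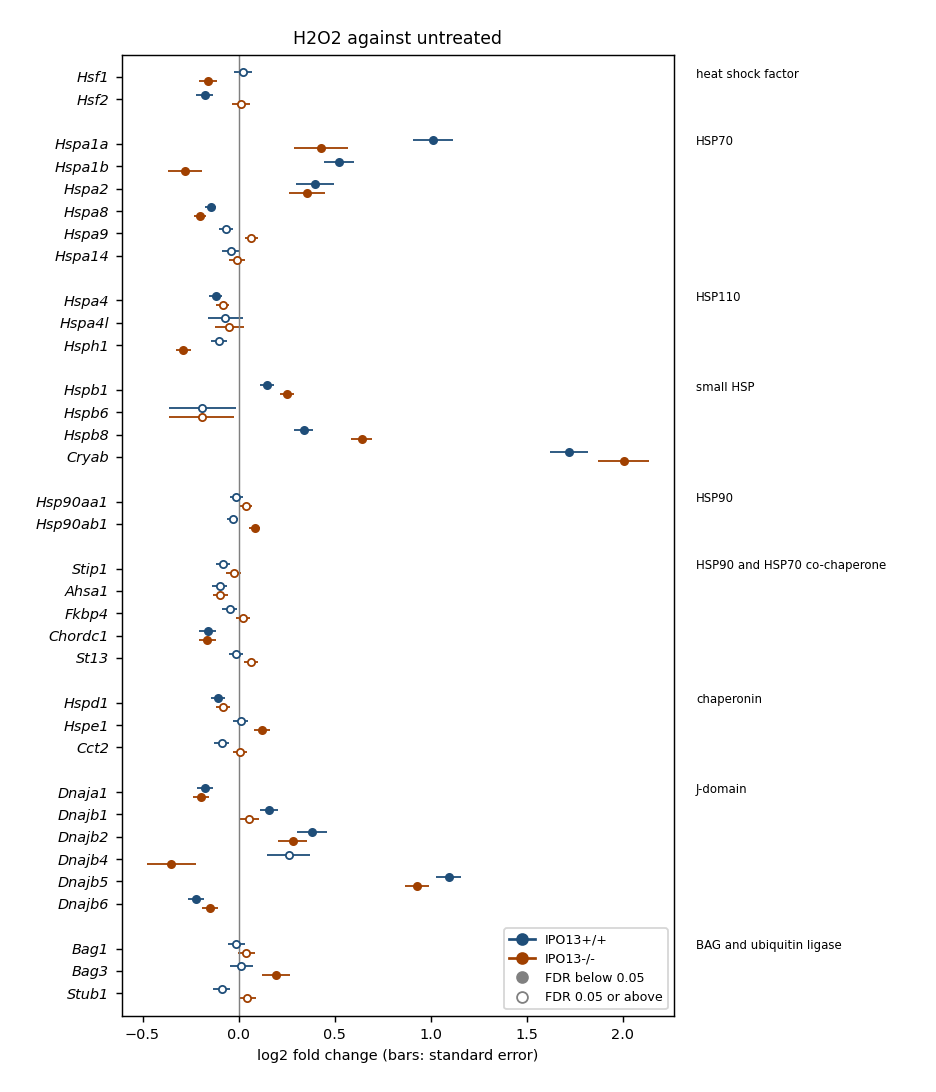
Log2 fold change after H2O2 for 34 members (Hspa1l left out), grouped by role, in IPO13+/+ (blue) and IPO13-/- (brown); bars are standard errors and filled points have an FDR below 0.05. Cryab lies furthest right in both genotypes, Dnajb5 is next to 1 in both, and Hspa1b and Dnajb4 lie on opposite sides of 0.

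Without treatment, more members were lower than higher in IPO13-/- cells. At an FDR below 0.05, 17 of 35 were lower (Hspa1a, Hspa8, Hspa9, Hspa4, Hsph1, Hspb1, Hspb8, Cryab, Hsp90ab1, Stip1, Ahsa1, Fkbp4, Hspd1, Hspe1, Cct2, Dnaja1 and Bag3) against 19.4% of all genes, and 5 were higher (Hspa1l, Hspa14, Hspa4l, Dnajb2 and Dnajb5) against 18.7%. Among genes with a mean of at least 1 CPM the background of lower calls was 28.4%, and 17 of 34 members were lower. The median over the members was -0.11, beside 0.0 over all genes. The small differences of abundant members depend on the scaling: with library totals the split was 9 lower and 6 higher, with a median of -0.03, under which scaling the median over all genes was 0.07. Those lower in every alternative were Hspa1a, Hsph1, Hspb1, Hspb8, Cryab, Fkbp4, Hspd1, Hspe1 and Bag3, and those higher in every alternative Hspa14 and Hspa4l. Without untreated IPO13-/- replicate 1 the higher calls numbered 3. At 2-fold or more Hspa1l and Hspa4l were higher, and Cryab and Bag3 lower (4.71% of all genes in either direction). That count of 4 was 2 without untreated IPO13+/+ replicate 2 and without either untreated IPO13-/- library.

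After H2O2 the genotypes differed in a similar number of members: 17 were lower in IPO13-/- (Hsf1, Hspa1a, Hspa1b, Hspa8, Hspa4, Hsph1, Hspb1, Hspb8, Cryab, Ahsa1, Fkbp4, Hspd1, Hspe1, Dnaja1, Dnajb1, Dnajb4 and Bag3; 17.5% of all genes) and 5 higher (Hsf2, Hspa14, Hspa4l, Dnajb2 and Stub1; 19.1% of all genes). Among genes with a mean of at least 1 CPM the shares were 24.4% lower and 26.5% higher, beside 17 and 5 of 34 members. At 2-fold or more, Hspa4l was higher and Hspa1a lower (4.56% of all genes), which left 1 without treated IPO13-/- replicate 1. Library totals gave the same split of 17 and 5. Lower calls held in every alternative for 12 members, and higher calls for Hsf2, Hspa14 and Hspa4l. Dnajb2 and Stub1 were lost without either treated IPO13+/+ library, without either untreated IPO13-/- library and without treated IPO13-/- replicate 2, which left 3 higher members in each case.

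The response itself differed between the genotypes for 3 members, tested as the interaction of genotype and treatment at an FDR below 0.05 (2.71% of all genes in either direction, and 4.2% of those with a mean of at least 1 CPM). Hspb8 had a larger rise in IPO13-/-, and Hspa1b and Dnajb4 had a lower response there. With library totals the calls were 0 in the first direction and 5 in the second, and limma-voom and DESeq2 each called 1 member. A fit with replicate number as a block called 6 members. The shares of all genes above belong to the main fit. Those of the alternative fits are not given here, so the counts under them have no background. Without untreated IPO13+/+ replicate 1 there were 2 higher and 4 lower, and without untreated IPO13+/+ replicate 2 there were 2 higher and 1 lower. The higher count was 0 without either treated IPO13+/+ library, either untreated IPO13-/- library or treated IPO13-/- replicate 2, and the lower count was 1 without any library other than untreated IPO13+/+ replicate 1. Hspa1b was called in every alternative, and Hspb8 and Dnajb4 were not. The median interaction over the members was 0.03, beside 0.02 over all tested genes, and with library totals it was -0.04, beside -0.05.

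**Figure D3:**
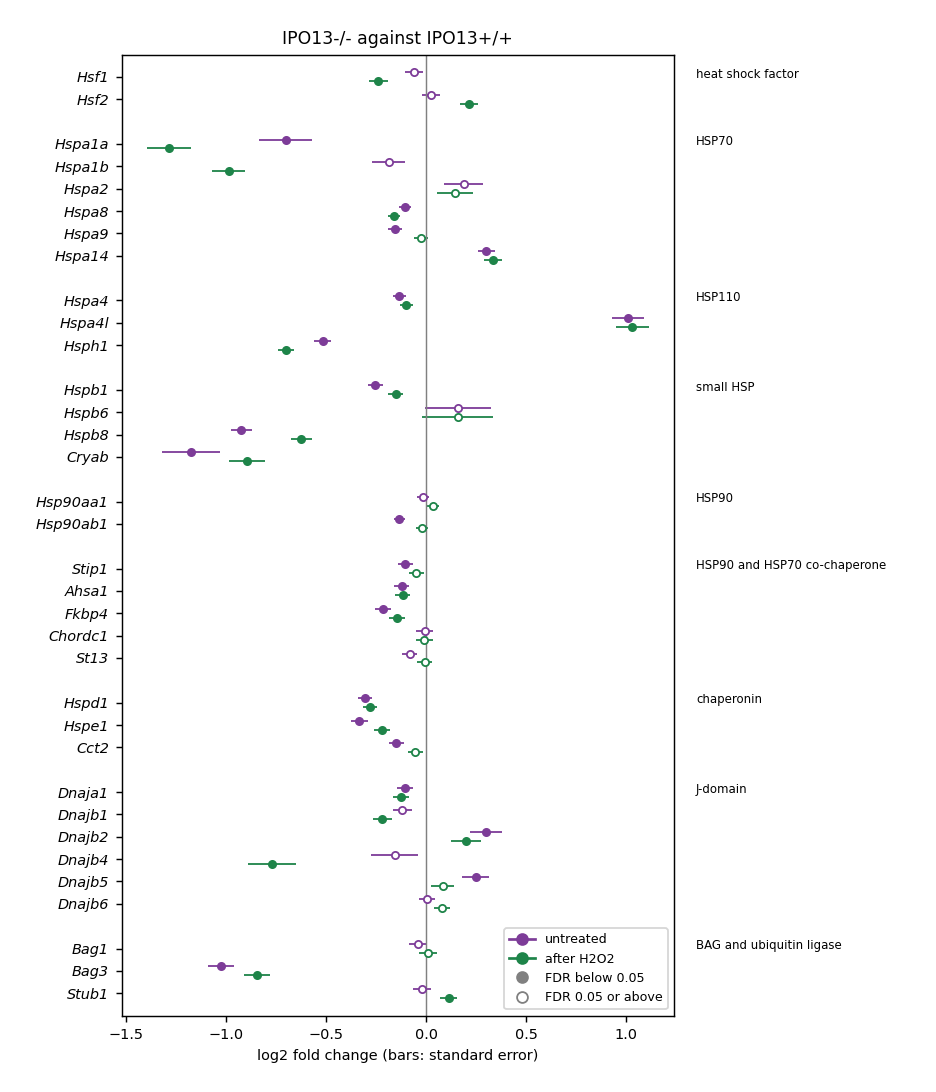
Log2 difference IPO13-/- against IPO13+/+ for 34 members (Hspa1l left out), grouped by role, in untreated cells (purple) and after H2O2 (green); bars are standard errors and filled points have an FDR below 0.05. Hspa4l lies near 1 in both conditions, and Bag3, Cryab, Hspb8, Hspa1a and Hsph1 lie to the left in both. Hspa1a is furthest left after H2O2. Hspa1a, Hspa1b, Dnajb4 and Hsph1 are among those further left after H2O2 than untreated.

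The heat shock factors changed little. Hsf1, the main stress-activated factor (chromosome 15, 76477422 to 76501913, plus strand of GRCm38 in the GENCODE M21 annotation), had 3184 and 3351 counts in untreated IPO13+/+ libraries, 3352 and 3276 after H2O2, 3559 and 2749 in untreated IPO13-/- and 2635 and 2543 in IPO13-/- after H2O2. As normalised values these were 47.6 ± 0.268, 48.3 ± 1.32, 45.6 ± 1.92 and 40.9 ± 0.293 CPM (SD, n = 2 libraries). The treated IPO13-/- libraries were the lowest and did not overlap with any other group. H2O2 changed Hsf1 by 0.02 ± 0.05 (SE) in IPO13+/+ (FDR = 0.83) and by -0.16 ± 0.05 in IPO13-/- (FDR = 0.012). The latter call was lost without untreated IPO13-/- replicate 1 (-0.11, FDR = 0.21), without treated IPO13-/- replicate 1 (-0.14, FDR = 0.1) and without treated IPO13-/- replicate 2 (-0.15, FDR = 0.077). Between genotypes the log2 difference was -0.24 ± 0.05 after H2O2 (FDR = 0.00018).

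Hsf2, a factor that forms mixed trimers with HSF1 (chromosome 10, plus strand, 57486385 to 57513135), gave counts of 3440 and 3426 in untreated IPO13+/+, 3005 and 3069 after H2O2, 3810 and 3207 in untreated IPO13-/- and 3293 and 3216 in IPO13-/- after H2O2. Here the treated IPO13+/+ libraries stood apart, at 44.3 ± 0.167 CPM (SD, n = 2) against 50.1 ± 1.67, 51.0 ± 0.953 and 51.4 ± 0.8 in the order of the other groups. Its log2 change after H2O2 was -0.18 ± 0.05 in IPO13+/+ (FDR = 0.0047), which was lost without treated IPO13+/+ replicate 1 (-0.17, FDR = 0.063), and 0.01 ± 0.05 in IPO13-/- (FDR = 0.9). The difference between the 2 responses was not called for Hsf1 (-0.18 ± 0.07, FDR = 0.17; -0.25 and FDR = 0.035 with library totals) or Hsf2 (0.19 ± 0.07, FDR = 0.13; FDR = 0.042 without untreated IPO13+/+ replicate 2). Transcript levels do not show whether the factors were active.

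Among the HSP70 genes, the stress-inducible pair Hspa1a and Hspa1b differed most between the groups. Both lie without introns on the minus strand of chromosome 17, Hspa1a at 34969190 to 34972156 and Hspa1b at 34956436 to 34959238. Hspa1a had 162 and 146 counts in untreated IPO13+/+, 320 and 302 after H2O2, 108 and 82 in untreated IPO13-/- and 127 and 108 in IPO13-/- after H2O2. Both treated IPO13+/+ libraries lay above all others, and none of the 4 groups overlapped on the CPM scale, at 2.25 ± 0.234, 4.54 ± 0.236, 1.37 ± 0.0744 and 1.85 ± 0.152 CPM (SD, n = 2). H2O2 raised it by 1.01 ± 0.10 on the log2 scale in IPO13+/+ (FDR = 1.6e-08). In IPO13-/- the change was 0.43 ± 0.14 (FDR = 0.02), a call lost without either untreated library (0.50 without replicate 1, FDR = 0.081, and 0.40 without replicate 2, FDR = 0.11) and without treated replicate 1 (0.35, FDR = 0.16), as well as with limma-voom (FDR = 0.054) and DESeq2 (FDR = 0.098). It was lower in IPO13-/- by -0.70 ± 0.13 untreated (FDR = 8.9e-05) and by -1.29 ± 0.11 after H2O2 (FDR = 3.3e-10).

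Hspa1b had 440 and 412 counts in untreated IPO13+/+, 596 and 629 after H2O2, 428 and 325 in untreated IPO13-/- and 285 and 285 in IPO13-/- after H2O2. On the CPM scale treatment moved the libraries upwards in one genotype and downwards in the other, without overlap in either. The log2 change was 0.52 ± 0.08 in IPO13+/+ (FDR = 6e-06) and -0.28 ± 0.09 in IPO13-/- (FDR = 0.018). The fall in IPO13-/- was not called without untreated replicate 1 (-0.21, FDR = 0.22), treated replicate 1 (-0.23, FDR = 0.15) or treated replicate 2 (-0.30, FDR = 0.063), nor with DESeq2 (FDR = 0.084). The interaction was -0.80 ± 0.12 (FDR = 0.0001) and was called in every alternative, with an FDR of at most 0.031. For Hspa1a the interaction was -0.58 ± 0.18 (FDR = 0.072), which was called without untreated IPO13+/+ replicate 1 (-0.69, FDR = 0.024) and with library totals (-0.66, FDR = 0.035). After H2O2 the level in IPO13-/- was lower by -0.99 ± 0.08 (FDR = 1.8e-10), against -0.19 ± 0.08 untreated (FDR = 0.075; -0.27 and FDR = 0.028 without untreated IPO13+/+ replicate 2).

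The counting could split reads between these near copies: 47.1% of the 100-base windows of the Hspa1a transcript occur in Hspa1b and 49.9% of those of Hspa1b in Hspa1a. Their separate values are therefore uncertain. With their counts summed into 1 row, an alternative added after seeing the data, the pair rose by 0.67 ± 0.07 in IPO13+/+ (FDR = 1.8e-08) and changed by -0.10 ± 0.08 in IPO13-/- (FDR = 0.39), with an interaction of -0.77 ± 0.11 (FDR = 4.9e-05). Summed, the pair was lower in IPO13-/- by -0.31 ± 0.08 untreated (FDR = 0.0017) and by -1.08 ± 0.07 after H2O2 (FDR = 3.3e-12). Hspa1a also overlaps the gene Gm20481 on the opposite strand over 19.0% of its exonic length.

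The other HSP70 members moved less. Hspa2, an HSP70 best known from the testis, rose in both genotypes, from 193 and 206 to 252 and 274 counts in IPO13+/+ (0.40 ± 0.10, FDR = 0.0026) and from 243 and 213 to 276 and 260 in IPO13-/- (0.35 ± 0.09, FDR = 0.0048). These calls were lost without treated IPO13+/+ replicate 2 (FDR = 0.053) and without untreated IPO13-/- replicate 1 (FDR = 0.077), respectively, and the latter also with DESeq2 (FDR = 0.065). Hspa8 fell from 5662 ± 134 to 5121 ± 33.6 CPM (SD, n = 2) in IPO13+/+ and from 5269 ± 69.1 to 4585 ± 32.0 CPM in IPO13-/-, log2 changes of -0.15 ± 0.03 (FDR = 0.00064) and -0.20 ± 0.03 (FDR = 8.5e-06). Of its windows, 63.4% are shared with processed copies elsewhere in the genome. Hspa9, the mitochondrial HSP70, was lower in untreated IPO13-/- (-0.16 ± 0.04, FDR = 0.00056), but not with library totals (-0.08, FDR = 0.081). Hspa14, a ribosome-associated HSP70, was higher in IPO13-/- by 0.30 ± 0.04 untreated (FDR = 2.5e-06) and 0.33 ± 0.04 after H2O2 (FDR = 5.1e-07). It lies on chromosome 2, whose 916 genes with a mean of at least 1 CPM had a median difference of 0.27 untreated and 0.30 after H2O2, against -0.04 and -0.01 for such genes elsewhere, and the part of this in the Hspa14 result was not tested.

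The HSP110 proteins, which exchange nucleotide on HSP70, diverged between genotypes. Hspa4l (chromosome 3, plus strand, 40744495 to 40796103) gave counts of 319 and 325 in untreated IPO13+/+, 284 and 330 after H2O2, 744 and 561 in untreated IPO13-/- and 608 and 550 in IPO13-/- after H2O2. All IPO13-/- libraries lay above all IPO13+/+ libraries. Its log2 difference was 1.01 ± 0.08 untreated (FDR = 8.4e-11) and 1.03 ± 0.08 after H2O2 (FDR = 1e-10), and with a library left out it ranged from 0.96 to 1.07 and from 0.94 to 1.13, so that its place at the 2-fold limit depends on single libraries. H2O2 changed it by -0.07 ± 0.09 in IPO13+/+ (FDR = 0.65) and by -0.05 ± 0.07 in IPO13-/- (FDR = 0.69). Hsph1, the HSP110 gene with an element of 3 units in its window, went the other way: it was lower in IPO13-/- by -0.52 ± 0.04 untreated (FDR = 7.6e-11) and by -0.70 ± 0.04 after H2O2 (FDR = 2e-13). Its levels were 464.5 ± 13.1, 433 ± 2.2, 324 ± 19.3 and 266 ± 2.5 CPM (SD, n = 2) in IPO13+/+ untreated and treated and IPO13-/- untreated and treated, with no overlap between groups. H2O2 lowered it in IPO13-/- (-0.29 ± 0.04, FDR = 4.1e-06), and in IPO13+/+ the change was -0.10 ± 0.04 (FDR = 0.07; FDR = 0.021 without untreated replicate 2), while the interaction was not called (-0.19 ± 0.06, FDR = 0.092; FDR = 0.016 without untreated IPO13+/+ replicate 1 and 0.011 with library totals). Hspa4 was lower by -0.14 ± 0.03 untreated (FDR = 0.0024) and was not called there with library totals (-0.06, FDR = 0.24).

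Of the 4 small heat shock genes, Hspb1, Hspb8 and Cryab rose after H2O2 in each genotype. Each was also called lower in IPO13-/- in both conditions, in comparisons that share libraries with the former, except that Hspb1 after H2O2 was lost without treated IPO13+/+ replicate 1 (FDR = 0.051). Cryab, which encodes αB-crystallin (chromosome 9, plus strand, 50751325 to 50756636), gave counts of 174 and 168 in untreated IPO13+/+, 581 and 548 after H2O2, 96 and 56 in untreated IPO13-/- and 270 and 290 in IPO13-/- after H2O2. The groups did not overlap on the CPM scale, and the treated IPO13-/- libraries lay above the untreated IPO13+/+ libraries. On the log2 scale it rose by 1.72 ± 0.10 in IPO13+/+ (FDR = 1.4e-13) and by 2.00 ± 0.13 in IPO13-/- (FDR = 1.8e-12), the largest changes among the members other than Hspa1l, and the responses did not differ beyond error (0.28 ± 0.17, FDR = 0.49). In IPO13-/- it was lower by -1.18 ± 0.14 untreated (FDR = 2.1e-07), between -1.45 and -0.97 with a library left out, and by -0.90 ± 0.09 after H2O2 (FDR = 7.5e-09). Cryab overlaps Hspb2 on the opposite strand over 252 exonic bases, and as the strand setting of the counting is not given in the sources used here, reads from the overlap cannot be told apart. Hspb2, itself a small heat shock gene, had at most 40 counts in any library.

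Hspb8, a small heat shock protein that works with BAG3 in selective autophagy (chromosome 5, minus strand, 116408491 to 116422864), gave counts of 3722 and 4325 in untreated IPO13+/+, 5041 and 5130 after H2O2, 2287 and 1959 in untreated IPO13-/- and 3028 and 3056 in IPO13-/- after H2O2. Treated libraries lay above untreated ones within each genotype, and all IPO13-/- libraries lay below all IPO13+/+ libraries. It rose by 0.34 ± 0.05 in IPO13+/+ (FDR = 6.7e-06) and by 0.64 ± 0.05 in IPO13-/- (FDR = 2.3e-10). The interaction was 0.30 ± 0.07 (FDR = 0.02), but it was not called in 10 of 15 alternatives, among them all single-library omissions except those of untreated IPO13+/+ replicate 1 and treated IPO13-/- replicate 1, and its FDR was 0.4 without untreated IPO13-/- replicate 1. It was lower in IPO13-/- by -0.93 ± 0.05 untreated (FDR = 7.5e-14) and by -0.62 ± 0.05 after H2O2 (FDR = 1.2e-10). Hspb1 (HSP27) followed with smaller changes: 459 ± 0.106 and 509 ± 7.94 CPM in IPO13+/+ and 384 ± 13.8 and 458 ± 4.34 CPM in IPO13-/- (SD, n = 2). Of the 100-base windows of Hspb1, 42.7% are shared with other genes. Its rises were 0.15 ± 0.04 (FDR = 0.0038; 0.13 and FDR = 0.085 without treated IPO13+/+ replicate 1) and 0.25 ± 0.04 (FDR = 7.3e-06). Hspb6 had between 58 and 97 counts and was not called in any comparison.

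The HSP90 genes and their partners moved by small amounts. Hsp90aa1, the inducible cytosolic HSP90 gene by its usual description, had between 4239 and 4524 CPM in every library. It was not called in any comparison, with log2 differences from -0.02 to 0.04 between pairs of groups. Other genes share 47.5% of its 100-base windows. Hsp90ab1 was lower in untreated IPO13-/- (-0.13 ± 0.03, FDR = 0.00064), which was lost with library totals (-0.05, FDR = 0.17) and without untreated IPO13-/- replicate 1 (-0.10, FDR = 0.081). Its rise after H2O2 in IPO13-/- (0.08 ± 0.03, FDR = 0.034) was called in 7 of 16 alternatives and was lost without either treated IPO13+/+ library (FDR = 0.062), untreated IPO13-/- replicate 1 (FDR = 0.25), treated IPO13-/- replicate 1 (FDR = 0.089) or treated IPO13-/- replicate 2 (FDR = 0.15). Of the 5 co-chaperones, Fkbp4, a prolyl isomerase that binds HSP90, was lower by -0.22 ± 0.04 untreated (FDR = 6.6e-05), and Stip1, the bridge between HSP70 and HSP90, and Ahsa1, an activator of HSP90's ATPase, by -0.11 ± 0.04 and -0.12 ± 0.04, neither of which was called with library totals. Stip1 was lost without any library other than untreated IPO13+/+ replicate 1 (FDR of 0.054 to 0.31), and Ahsa1 without either untreated IPO13-/- library (FDR of 0.17 and 0.073). Chordc1, which carries 3 overlapping runs of 3 units in its window, fell after H2O2 by -0.16 ± 0.04 in IPO13+/+ (FDR = 0.007; FDR = 0.17 without treated replicate 1) and by -0.16 ± 0.04 in IPO13-/- (FDR = 0.0057; FDR = 0.19 without untreated replicate 1 and 0.1 without treated replicate 2). St13, an HSP70-interacting protein, was not called in any comparison.

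The chaperonin members were all lower in untreated IPO13-/- cells: Hspd1 and Hspe1, which form the mitochondrial chamber and its lid, by -0.31 ± 0.04 (FDR = 5e-08) and -0.34 ± 0.04 (FDR = 1.6e-07), and Cct2, a subunit of the cytosolic chaperonin TRiC, by -0.15 ± 0.04 (FDR = 0.002; -0.10 and FDR = 0.13 without untreated IPO13-/- replicate 1). Hspd1 stood at 1745 ± 37.2 CPM in untreated IPO13+/+ and 1409 ± 11.2 in untreated IPO13-/- (SD, n = 2), and Hspe1 at 400.2 ± 11.8 and 317 ± 1.66, with no overlap for either. Both remained lower after H2O2, by -0.28 ± 0.04 (FDR = 2.3e-07) and -0.22 ± 0.04 (FDR = 6.5e-05). The other 7 TRiC subunits (Tcp1, Cct3, Cct4, Cct5, Cct6a, Cct7 and Cct8) were taken from a separate list of chaperone genes. Between genotypes, 19.4% of all tested genes were called lower in untreated IPO13-/- and 17.5% after H2O2. Among genes with a mean of at least 1 CPM these shares were 28.4% and 24.4%. They are not given here for library totals or with a library left out. With Cct2, all 8 TRiC subunits were called lower in untreated IPO13-/-, by -0.21 to -0.12. With library totals all 8 were still below 0, by -0.12 to -0.04, but only 1 was called. The count was 2 of 8 without untreated IPO13-/- replicate 1 and 6 to 8 without any other library. After H2O2, 1 of the 8 was called lower with TMM factors, and 0 to 2 were with a library left out, the 2 without either untreated IPO13+/+ library.

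The J-domain proteins, which deliver clients to HSP70, moved in both directions. Dnajb5, of the same class as Dnajb1 (chromosome 4, plus strand, 42949814 to 42959425), gave counts of 680 and 749 in untreated IPO13+/+, 1520 and 1527 after H2O2, 960 and 746 in untreated IPO13-/- and 1445 and 1533 in IPO13-/- after H2O2. Every treated library lay above every untreated one, and the treated groups of both genotypes overlapped at 22.2 ± 0.175 and 23.6 ± 1.74 CPM (SD, n = 2). It rose by 1.09 ± 0.06 in IPO13+/+ (FDR = 1.8e-13) and by 0.93 ± 0.06 in IPO13-/- (FDR = 3e-12; above 1 without treated replicate 1, at 1.02), and the responses did not differ beyond error (-0.16 ± 0.09, FDR = 0.41). In untreated cells it was higher in IPO13-/- by 0.25 ± 0.07 (FDR = 0.0044; 0.23 and FDR = 0.07 without untreated IPO13-/- replicate 1). None of its 3 RefSeq windows held a run of 2 or 3 units.

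Dnajb4, of that class too (chromosome 3, minus strand, 152178511 to 152210302), gave counts of 172 and 172 in untreated IPO13+/+, 220 and 192 after H2O2, 179 and 131 in untreated IPO13-/- and 110 and 113 in IPO13-/- after H2O2. The treated libraries were the highest in one genotype and the lowest in the other. Its log2 change was 0.26 ± 0.11 in IPO13+/+ (FDR = 0.087) and -0.35 ± 0.13 in IPO13-/- (FDR = 0.039; FDR of 0.068 to 0.33 without any one of the 4 IPO13-/- libraries, 0.082 with limma-voom and 0.18 with DESeq2). The interaction was -0.61 ± 0.17 (FDR = 0.047), and it was not called in 11 of 15 alternatives, among them all single-library omissions except that of untreated IPO13+/+ replicate 1, with an FDR of up to 0.38 when untreated IPO13-/- replicate 1 was left out. After H2O2 it was lower in IPO13-/- by -0.77 ± 0.12 (FDR = 9.1e-06), a call that held in every alternative.

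Dnajb1, the J-domain partner of the inducible HSP70, had 62.7 and 66.9 CPM in untreated IPO13+/+ and 72.9 and 71.6 after H2O2 (0.16 ± 0.05, FDR = 0.016). That rise was lost without untreated IPO13+/+ replicate 1 (FDR = 0.12), treated replicate 1 (FDR = 0.15) or treated replicate 2 (FDR = 0.073), and the change in IPO13-/- was 0.06 ± 0.05 (FDR = 0.45). Dnajb2, a neuronal J-domain protein, rose by 0.38 ± 0.08 in IPO13+/+ (FDR = 0.00055) and 0.28 ± 0.08 in IPO13-/- (FDR = 0.0056; FDR = 0.17 without treated IPO13-/- replicate 2, 0.052 without untreated replicate 1 and 0.071 without untreated replicate 2). Dnaja1 and Dnajb6 fell in both genotypes: Dnaja1 by -0.18 ± 0.04 (FDR = 0.0018; FDR = 0.081 without treated IPO13+/+ replicate 1) and -0.20 ± 0.04 (FDR = 0.00046), and Dnajb6 by -0.22 ± 0.04 (FDR = 0.00011) and -0.15 ± 0.04 (FDR = 0.0055; FDR of 0.058 to 0.084 without any one of the 4 IPO13-/- libraries). Of the windows of Dnajb6 and Dnaja1, 36.3% and 24.0% are shared with other genes.

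Of the BAG proteins and the ubiquitin ligase that link HSP70 to degradation, Bag3 stood out. This gene (chromosome 7, 128523616 to 128546981, plus strand), whose product is the HSP70 exchange factor of selective autophagy, had 1022 and 1040 counts in untreated IPO13+/+, 1044 and 1038 after H2O2, 544 and 472 in untreated IPO13-/- and 563 and 506 in IPO13-/- after H2O2. The libraries separated by genotype, and the groups of IPO13+/+ overlapped. It was lower in IPO13-/- by -1.03 ± 0.07 untreated (FDR = 1.2e-12), between -1.06 and -0.96 with a library left out, and by -0.85 ± 0.07 after H2O2 (FDR = 5.2e-11). H2O2 changed it by 0.01 ± 0.06 in IPO13+/+ (FDR = 0.93) and 0.19 ± 0.07 in IPO13-/- (FDR = 0.044), the latter with an FDR of 0.26 without untreated IPO13-/- replicate 1, 0.23 without treated IPO13-/- replicate 1, 0.063 without either treated IPO13+/+ library, 0.061 with limma-voom and 0.14 with DESeq2. Bag1, another exchange factor of HSP70, was not called in any comparison. Stub1, the ubiquitin ligase CHIP, was called only between genotypes after H2O2, higher in IPO13-/- (0.11 ± 0.04, FDR = 0.048). That call was lost without treated IPO13-/- replicate 2, either treated IPO13+/+ library or either untreated IPO13-/- library. The change of Stub1 with H2O2 was not called in either genotype. Of its exonic length, 42.3% overlaps Jmjd8 on the opposite strand.

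**Figure D4:**
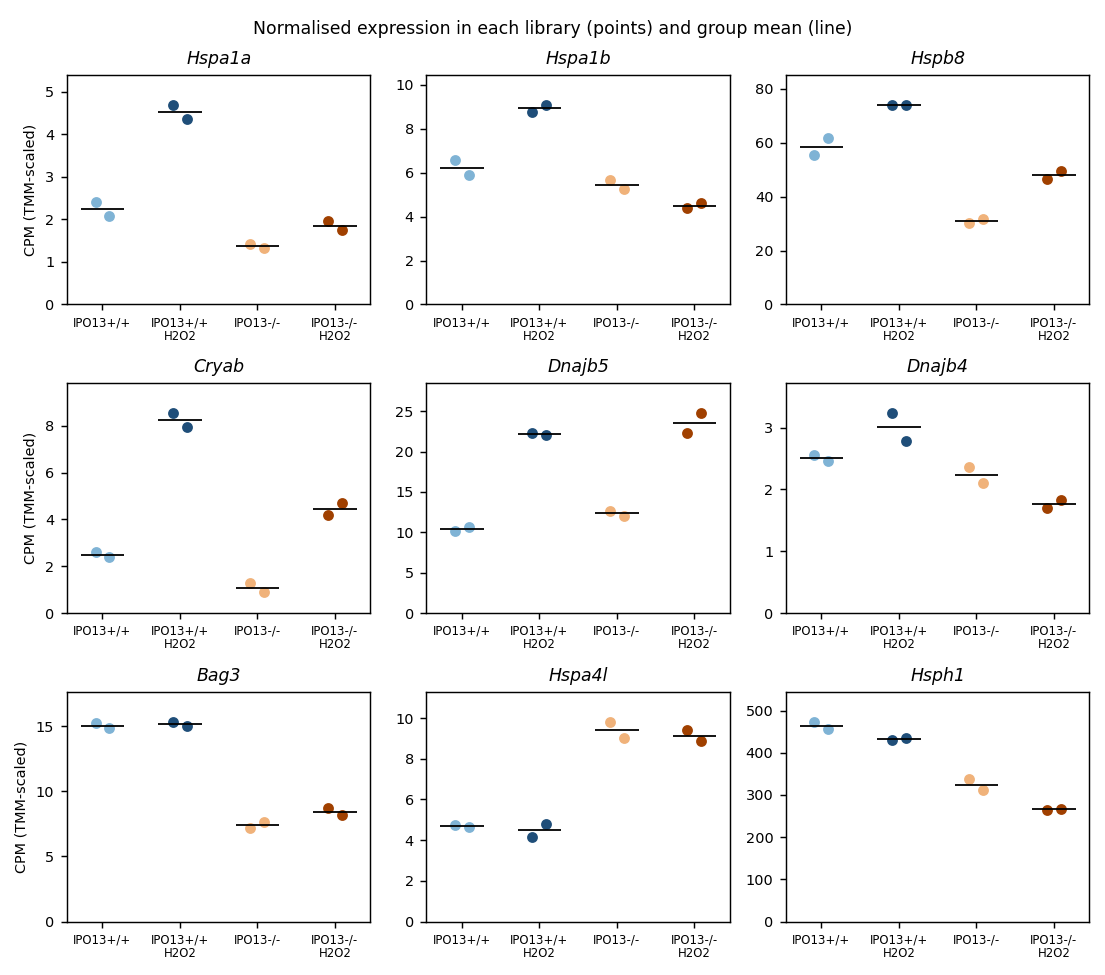
CPM scaled with TMM factors in each library (points, 2 per group) and the group mean (line) for 9 members, with each axis starting at 0. Cryab and Dnajb5 are high in the treated groups of both genotypes, Bag3, Hspa4l and Hsph1 separate by genotype, and Hspa1b and Dnajb4 move up after H2O2 in IPO13+/+ and down in IPO13-/-.

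Of the 5 members with a run of 3 units in a window, none was called higher after H2O2 in IPO13+/+, where 11.5% of all tested genes were. With only 5 genes, such a count cannot be told apart from that share. Chordc1, Hspd1 and Dnajb6 were called lower there, against 13.8% of all tested genes. In IPO13-/-, 14.9% of all tested genes were called higher and 14.4% lower, with Hsph1, Chordc1 and Dnajb6 among the lower. The log2 changes of the 5 after H2O2 in IPO13+/+ were -0.10 for Hsph1, -0.16 for Chordc1, -0.11 for Hspd1, 0.01 for Hspe1 and -0.22 for Dnajb6. In IPO13-/- they were -0.29, -0.16, -0.08, 0.12 and -0.15 in the same order. Of these, Hspe1 in IPO13-/- was the one called higher, with an FDR of 0.022 that was 0.12 without untreated replicate 1, 0.094 without untreated replicate 2 and 0.3 without treated replicate 2. Of the 13 members called higher after H2O2 in either genotype 11 had a window, and a run of 2 units occurred in 6 of them (Hspa1a, Hspa1b, Hspb1, Hspb8, Hspe1 and Bag3) and not in the other 5 (Hspa1l, Hspa2, Dnajb1, Dnajb2 and Dnajb5), beside 16 of 28 over the members with a window.

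A further 52 heat shock and chaperone genes outside the members were taken from a second list, and 51 of them were found and tested. After H2O2, 5 were higher and 10 lower in IPO13+/+ (9.8% and 19.6%, beside 11.5% and 13.8% of all genes), and 9 were higher and 4 lower in IPO13-/- (17.6% and 7.84%, beside 14.9% and 14.4%). In IPO13-/- against IPO13+/+, 7 were higher and 18 lower untreated (beside 18.7% and 19.4% of all genes), and 9 were higher and 9 lower after H2O2 (beside 19.1% and 17.5%). Of the 51, 43 had a mean of at least 1 CPM. Among these, H2O2 gave 5 higher and 10 lower in IPO13+/+, beside 15.1% and 21.4% of all genes at that level. In IPO13-/- it gave 8 and 4, beside 20.8% and 21.5%. Between genotypes 5 were higher and 17 lower untreated (beside 25.1% and 28.4%), and 8 and 8 after H2O2 (beside 26.5% and 24.4%). Of the interaction, edgeR called none of the 51, beside 2.71% of all tested genes. With limma-voom and DESeq2 0 were called too, while the fit with the replicate block called 2. The shares of all genes called in those other fits are not given here. Past 2-fold, Hsf3, a further heat shock factor on chromosome X, had 8 and 4 counts in untreated IPO13+/+, 5 and 1 after H2O2, 37 and 31 in untreated IPO13-/- and 31 and 42 in IPO13-/- after H2O2. That is higher in every IPO13-/- library, with a log2 difference of 2.47 ± 0.41 untreated (FDR = 2.1e-05), between 2.03 and 3.07 with a library left out. Hspb2, the neighbour of Cryab, shares 252 exonic bases with it on the opposite strand. Its counts may thus hold reads of Cryab, which was not tested. Hspb2 had 20 and 32, 40 and 36, 10 and 10, and 16 and 24 counts in the same order. It differed by -1.37 ± 0.37 in untreated IPO13-/- (FDR = 0.004) and by 1.11 ± 0.40 after H2O2 in IPO13-/- (FDR = 0.034). The first was lost without untreated IPO13-/- replicate 1 (FDR = 0.086) or untreated IPO13+/+ replicate 2 (FDR = 0.087), and the second without untreated IPO13-/- replicate 1 (FDR = 0.24), untreated replicate 2 (FDR = 0.095) or treated replicate 2 (FDR = 0.33).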

How the data were processed

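The authors prepared mRNA libraries with a TruSeq kit, sequenced them in pairs on an Illumina HiSeq and mapped the reads to mm10. The submitters' processing notes name bcl2fastq, STAR 2.3.1, HTSeq and limma. The annotation and the strand setting are not given in the sources used here, and the labels and the Methods differ in instrument and read length. The authors deposited raw counts per gene symbol and the same values as CPM for each of 8 libraries. The deposited CPM equal count over library total within 5e-04 and were only used for that check.

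Counts were fitted in R 4.3.3 with edgeR 4.0.16 (quasi-likelihood test, TMM factors, 4 groups of 2 libraries in 1 model, 19424 genes seen at least 1 time in some library), and p-values were adjusted over all of them by the Benjamini-Hochberg method. Calls were made below an FDR of 0.05, and counted again with a change of at least 2-fold. The SE was taken as the size of the log2 fold change over the root of the F statistic. CPM values in the text are scaled with TMM factors. Alternatives were limma-voom (limma 3.58.1), DESeq2 1.42.0, other scalings and filters, the replicate block, fits of the 4 libraries compared and the omission of each library. Positions are from GENCODE M21 on GRCm38, the assembly of mm10, and promoter windows from RefSeq.

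The members and lists were chosen with earlier results of these data known. Named in full were Hsf1, Hsf2 and members past 2-fold in any pairwise comparison or called in the interaction. Other members were named by role, and from the second list the genes past 2-fold and the TRiC subunits. Hspa1l was kept in all counts and given no fold.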

Additional observations from a re-analysis of the deposited data

Results flagged for a closer look

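The response to H2O2 differed between the genotypes for 3 members, by the interaction term of edgeR's quasi-likelihood test. Hspa1b rose in IPO13+/+ and fell in IPO13-/-, with an interaction of -0.80 on the log2 scale. The fall was not called with DESeq2 or without some single IPO13-/- libraries. With the counts of Hspa1a and Hspa1b summed, the change in IPO13-/- was -0.10 (edgeR FDR = 0.39) and the interaction was -0.77. Dnajb4 had an interaction of -0.61, with a change of 0.26 in IPO13+/+ that was not called. Its fall in IPO13-/- was not called with limma-voom or DESeq2. Hspb8 rose in both genotypes and more in IPO13-/-, with an interaction of 0.30. The interactions of Hspb8 and Dnajb4 were not called with limma-voom (FDR = 0.089 and 0.14) or DESeq2 (FDR = 0.051 and 0.26).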

How the results depend on the processing

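With relative log expression factors, limma-voom or DESeq2, 3 members in place of 5 were higher in IPO13-/- after H2O2, and DESeq2 gave 6 higher in IPO13-/- after treatment in place of 10. A fit of only the 4 libraries compared left 1 lower member in IPO13+/+ after H2O2. Library totals gave 9 lower members and a median of -0.03 (-0.025) for untreated IPO13-/- against IPO13+/+, and for the interaction 0 higher, 5 lower and a median of -0.04 (-0.038). The interaction had 0 higher and 1 lower with filterByExpr, limma-voom or DESeq2, 1 lower with a minimum of 10 counts, and 1 lower without Hspa1a and Hspa1b. Without that pair 1 member was past 2-fold between genotypes after H2O2 and the median was -0.06 (-0.055). Hspa1a in IPO13-/- after H2O2 turned from 0.43 to -0.104 when its counts were summed with Hspa1b.

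With single libraries left out, the numbers ranged as follows. In IPO13+/+ after H2O2 there were 7 to 10 higher, 2 to 9 lower and 2 to 4 past 2-fold. In IPO13-/- after H2O2 there were 4 to 10 higher, 3 to 11 lower and 1 to 2 past 2-fold. Between untreated genotypes there were 3 to 5 higher, 12 to 18 lower and 2 to 4 past 2-fold. Between genotypes after H2O2 there were 3 to 5 higher, 13 to 17 lower and 1 to 3 past 2-fold. The interaction gave 0 to 2 higher and 1 to 4 lower.

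Nothing in the labels says that a replicate number marks a shared culture or day. The correlation of same-numbered deviations from the group mean, over 9907 genes, was 0.33, 0.58 and 0.29 among untreated IPO13+/+ and both IPO13-/- groups. For treated IPO13+/+ with each of the others it was between -0.07 and 0.004. Deviations thus ran along a common direction among the former groups and not with treated IPO13+/+. With 2 libraries a group, the sign of each correlation depends only on which library is numbered 1. The values therefore cannot show that the number marks anything shared. The main fit left replicate number out. With the replicate block the interaction had 2 higher and 4 lower members, since Hsf2, Hspa1a and Hsph1 were called too (FDR = 0.044, 0.027 and 0.011). The share of all genes called in the interaction with the block is not given here. The other counts of members stayed within 1.5 times.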
